A study of Mus musculus with 24 samples.

Results

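The genes described here are the 6 ligands and 4 receptors of the EGF family, 10 of the 54532 genes counted in whole kidneys of 24 mice. They were taken as the named members of this family. The ligands are Egf (epidermal growth factor), Tgfa (transforming growth factor alpha), Hbegf (heparin-binding EGF-like growth factor), Areg (amphiregulin), Ereg (epiregulin) and Btc (betacellulin), and the receptors are Egfr, Erbb2, Erbb3 and Erbb4. All mice were 18-day-old C57BL/6 animals, of the J substrain in the study's methods, that carried 1 RC allele of Pkd1, a missense allele that yields less mature polycystin-1, over a second Pkd1 allele flanked by loxP sites. The second allele was left intact in the noncystic RC/+ mice, which lacked Cre, and was inactivated in the cystic RC/- mice by Ksp-Cre, a transgene driven by the cadherin-16 promoter in distal tubules and collecting ducts. The D18 and D53 lines each descend from 1 founder in which the miR-17 binding motif had been deleted from the 3′ untranslated region of the RC allele. There were 3 mice in each noncystic group (RC/+, RC/+ D18, RC/+ D53) and 5 in each cystic group. The study reports that deleting the motif relieved the cystic disease almost fully in RC/- mice of this age. For the D18 and D53 groups, cystic therefore names the RC/- genotype and not the state of the kidneys. Because every RC/- mouse carried Cre and no RC/+ mouse did, Cre and the cystic genotype cannot be told apart.

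EGF ligands are made as membrane-anchored precursors, are cut loose by metalloproteases, and bind ErbB receptor tyrosine kinases on the same or neighbouring cells. Egfr binds all 6 of these ligands, Erbb4 binds Hbegf, Ereg and Btc as well as the neuregulins, Erbb2 has no known soluble ligand and acts as a partner in dimers, and Erbb3 has a weak kinase and signals through its partners. In the kidney Egf is made chiefly by the thick ascending limb and the distal convoluted tubule, and Egfr signalling is known to promote tubule cell growth in polycystic kidney disease.

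The feature that makes these genes a family is a short domain held together by 6 cysteines. Its coding bases are shown for 5 of the 6 ligands, Hbegf being left out, to let the shared spacing be seen, from the reference transcripts of GENCODE M21 on GRCm38 and not from the reads of these kidneys, and the cysteine codons are in capitals. In Tgfa, Areg, Ereg and Btc the stretch is 108 bases long, with 7, 4, 10, 1 and 8 codons between successive cysteines. The Egf stretch is 111 bases long because its second gap holds 5 codons in place of 4. In each gene the stretch is split over 2 exons. It lies within chr3:129686322-129690850 (minus strand) for Egf, chr5:91362421-91366197 (minus strand) for Btc, chr6:86263200-86269960 (plus strand) for Tgfa, chr5:91088496-91089111 (plus strand) for Ereg and chr5:91143614-91144364 (plus strand) for Areg.
Egf: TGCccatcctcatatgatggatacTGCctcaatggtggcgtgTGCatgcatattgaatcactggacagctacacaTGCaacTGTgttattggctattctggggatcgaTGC
Btc: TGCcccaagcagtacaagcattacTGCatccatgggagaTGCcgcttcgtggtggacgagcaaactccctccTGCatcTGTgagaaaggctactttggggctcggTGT
Tgfa: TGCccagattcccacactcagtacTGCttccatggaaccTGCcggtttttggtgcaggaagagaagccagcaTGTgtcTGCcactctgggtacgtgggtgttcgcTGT
Ereg: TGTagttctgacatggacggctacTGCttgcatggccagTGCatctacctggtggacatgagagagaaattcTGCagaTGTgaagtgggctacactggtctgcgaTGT
Areg: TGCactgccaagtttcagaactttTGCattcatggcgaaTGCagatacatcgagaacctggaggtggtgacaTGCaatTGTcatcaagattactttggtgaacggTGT

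The libraries held 20.4 to 30.8 M counts each. Kidney markers were present in every library, with Umod, the uromodulin gene of the thick ascending limb, at 817 to 1861 counts scaled to a library of 1000000 counts (CPM), the proximal tubule transporter Slc34a1 at 649.5 to 4552 CPM, and the principal cell water channel Aqp2 at 326 to 2101 CPM. Pkd1 itself lay between 49.9 and 51.5 CPM in RC/+ kidneys and between 52.0 and 65.2 CPM in RC/- kidneys. Its counts were not split by allele, and so do not check the genotype labels. Libraries 20 to 27, which comprise 3 RC/- D18 and all 5 RC/- D53 kidneys, stood apart: 7 skeletal muscle genes summed to between 153.6 and 203 CPM in them and to between 5.68 and 10.3 CPM in the other 16 libraries.

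In noncystic RC/+ kidneys the family was dominated by Egf. Divided by the length of its annotated exons, Egf stood at 145 ± 15.1 CPM per kb (SD, n = 3), followed by Erbb2 at 20.3 ± 1.63 and Erbb3 at 10.7 ± 1.05 CPM per kb. Hbegf at 4.53 ± 0.446, Egfr at 4.15 ± 0.566, Erbb4 at 3.67 ± 0.50002 and Btc at 3.11 ± 0.390 CPM per kb came next. Neighbours among these last 4 genes differed by less than the sum of their SDs. Tgfa was lower at 1.49 ± 0.162 CPM per kb, and Areg and Ereg were close to the detection limit at 0.0342 ± 0.0331 and 0.0143 ± 0.0247 CPM per kb. In the 5 RC/- kidneys Erbb2 headed the order at 23.4 ± 2.84 CPM per kb, ahead of Egf at 19.7 ± 8.56, Btc at 14.996 ± 3.08, Erbb3 at 11.8 ± 1.63 and Hbegf at 9.71 ± 0.978 CPM per kb. Successive genes in that order, from Erbb2 to Hbegf, lay within the sum of their SDs of each other. Egfr at 5.12 ± 0.747, Tgfa at 3.33 ± 0.384 and Erbb4 at 3.26 ± 0.242 CPM per kb stood below them, with Tgfa and Erbb4 not separable. Areg and Ereg were again last, at 0.187 ± 0.151 and 0.0863 ± 0.0255 CPM per kb.

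**Figure D1:**
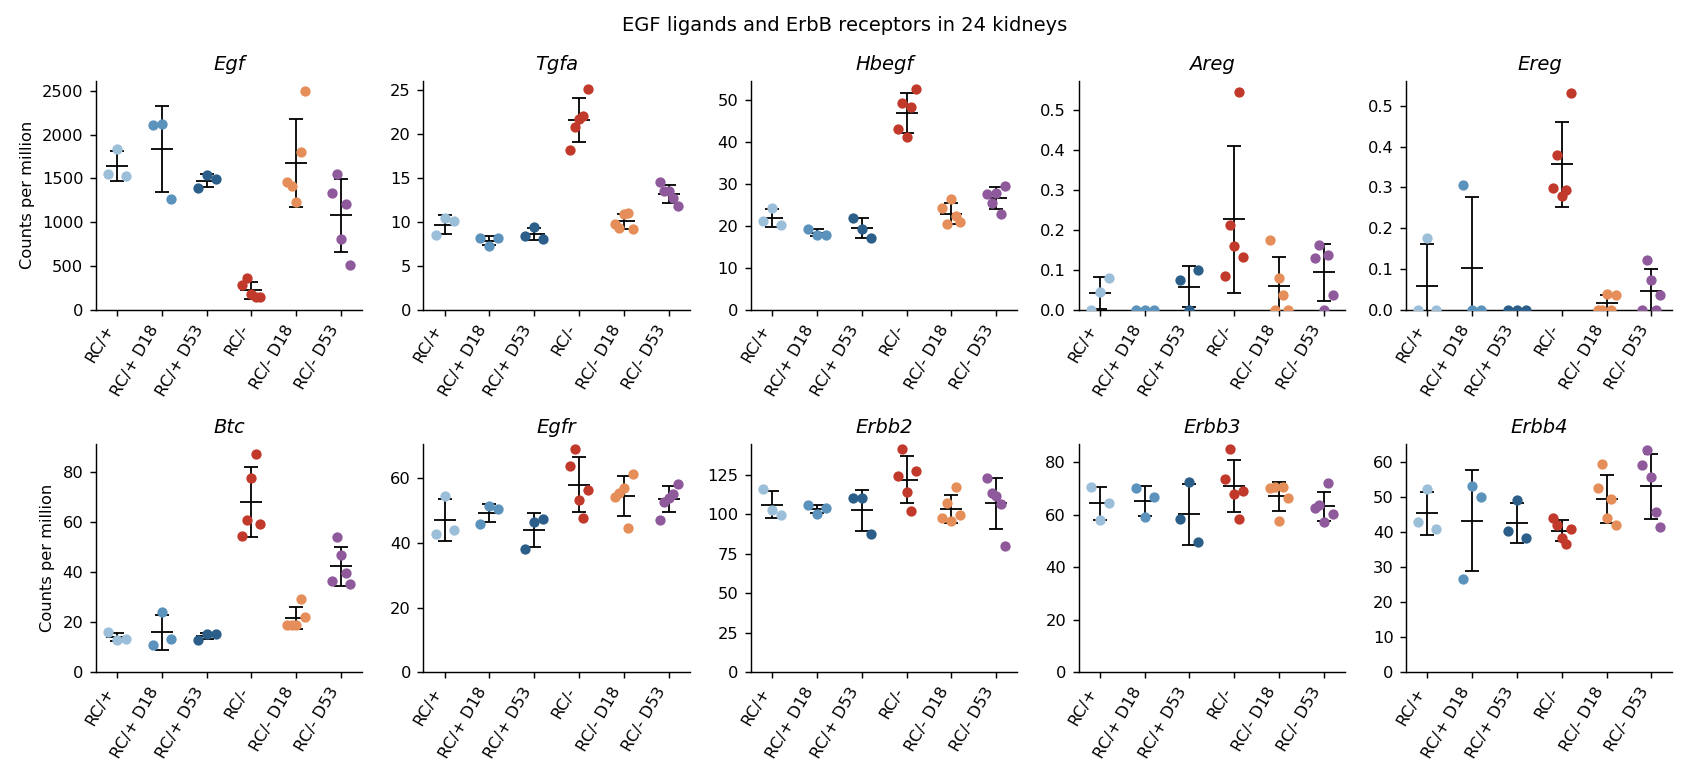
CPM of each EGF ligand and ErbB receptor (vertical axes, linear from 0) by group, with 1 point per kidney and bars for the mean and SD (n = 3 in RC/+ groups, n = 5 in RC/- groups). Egf is lowest and Tgfa, Hbegf and Btc are highest in the 5 RC/- kidneys, and the receptors overlap between RC/- and RC/+.

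On the GRCm38 map with GENCODE M21 gene models, Egf spans chr3:129677565-129755316 on the minus strand and Tgfa chr6:86195223-86275719 on the plus strand. Ereg (chr5:91074622-91093646, plus), Areg (chr5:91139599-91148432, plus) and Btc (chr5:91357261-91402994, minus) lie near each other. Egfr (chr11:16752203-16918158, plus) and Erbb2 (chr11:98412470-98437716, plus) share a chromosome, whereas Erbb3 (chr10:128567523-128589652, minus), Erbb4 (chr1:68032186-69108059, minus) and Hbegf (chr18:36504927-36515805, minus) are each on one of their own. Opposite-strand genes overlap 9.82% of the exon bases of Egf, 3.42% of those of Ereg and 1.82% of those of Tgfa. The strand setting used for counting is not stated, so reads of such partners may be included in those counts.

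The comparison of RC/- with RC/+ asks how the family differs between cystic and noncystic kidneys of the unedited line. Egf was lower, and Btc, Tgfa and Hbegf were higher in the cystic kidneys, whereas the 4 receptors stayed within 0.30 log2 units of RC/+. Of the 8 members that passed the limit on low counts without help from the RC/- libraries, 5 differed in limma-trend. The threshold was a Benjamini-Hochberg adjusted p below 0.05, and 4 were higher and 1 lower. The call of 1 of the 4, Egfr, held in only 6 of 17 alternative settings. Over all 22570 genes tested, 37.6% were called, 25.5% higher and 12.2% lower, so a call was common in this comparison. Groups of libraries that did not overlap were likewise found for 37.6% of all genes, and among these 8 members for Egf, Tgfa, Hbegf and Btc.

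Egf stood at 1548, 1834 and 1529.7 CPM in the 3 RC/+ kidneys and at 279, 364, 181, 149 and 139 CPM in the 5 RC/- kidneys. The highest RC/- value was thus below the lowest RC/+ value. Egf fell by 2.98 on the log2 scale (SE 0.31, 95% interval -3.58 to -2.37, limma adjusted p = 5.64e-08), to 0.127 of its RC/+ level. In bulk tissue, fewer cells of a type and less RNA per cell cannot be told apart, and marker lists of the nephron segments that make Egf moved with it. All 5 distal convoluted tubule markers were lower in RC/- kidneys, with a median log2 difference of -1.90, and their summed level was 587 to 967 CPM in RC/- against 2826 to 2940.2 CPM in RC/+ kidneys. Slc12a3, the thiazide-sensitive sodium chloride transporter of that segment, differed by -1.76 on the log2 scale. Of the 6 thick ascending limb markers 4 were lower and 1 was higher, the median was -0.79, and the summed level was 1976 to 3726 CPM in RC/- against 4551 to 5194 CPM in RC/+ kidneys. No marker of either list was at 0 in every library. Proximal tubule markers, 7 of 7, were lower too, at a median of -1.35. The part of these changes in the Egf difference was not tested.

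Btc had the largest fitted rise among the 8 well-detected members. Its values were 16.1, 12.8 and 13.4 CPM in RC/+ and 54.2, 60.9, 77.4, 87.2 and 59.2 CPM in RC/- kidneys. Every RC/- kidney thus held more than 3 times the highest RC/+ value. The log2 difference was 2.24 (SE 0.20, interval 1.85 to 2.64, adjusted p = 6.36e-09), a 4.74-fold rise. Principal cell markers of the collecting duct moved in the same direction, with 5 of 7 higher at a median of 1.23 and a summed level of 1471 to 3562 CPM in RC/- against 891 to 1204 CPM in RC/+ kidneys. Aqp2, among them, was higher by 1.23. Markers of fibroblasts (5 of 7, median 1.20), macrophages (7 of 7, 1.62) and dedifferentiated or injured tubule (5 of 6, 2.31) were higher too. Whether Btc came from any of these cells was not tested.

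Tgfa, a membrane-anchored ligand made by epithelial cells, stood at 8.49, 10.4 and 10.2 CPM in RC/+ and at 18.3, 20.8, 21.7, 22.1 and 25.2 CPM in RC/- kidneys. The groups were apart, and the rise was 1.15 on the log2 scale (SE 0.11, adjusted p = 1.25e-08), or 2.22-fold. Hbegf, which also binds heparan sulphate, stood at 21.03, 24.3 and 20.3 CPM in RC/+ and at 43.1, 49.4, 41.2, 48.4 and 52.7 CPM in RC/- kidneys. Its rise of 1.10 (SE 0.10, adjusted p = 1.57e-08) was 2.14-fold, with intervals of 0.94 to 1.36 for Tgfa and 0.89 to 1.30 for Hbegf that cover nearly the same range. Markers of macrophages, 7 of 7, and of dedifferentiated or injured tubule, 5 of 6, were higher in the same kidneys, at medians of 1.62 and 2.31. The macrophage markers summed to 433 to 764 CPM in RC/- and to 219 to 241 CPM in RC/+ kidneys, and the tubule injury markers to 2641 to 5406 CPM against 1207 to 1353 CPM. The part of either in the Tgfa and Hbegf differences was not tested.

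Ereg and Areg were barely detected, and passed the limit on low counts only because of the RC/- libraries, so a difference between the groups was built into their inclusion. Ereg had 7, 9, 7, 7 and 12 reads in the RC/- kidneys and 0, 4 and 0 reads in the RC/+ kidneys. One RC/+ D18 kidney, library 7, also had 7 reads, as many as the lowest RC/- kidneys. Summed over libraries and scaled by depth, Ereg was 6.37-fold higher in RC/- than in RC/+ kidneys, with an exact 95% interval of 2.31 to 24.5 that covers counting error only. Its inclusion through the RC/- libraries built in this direction, so no call is given for it. Areg had 2, 5, 4, 13 and 3 reads in RC/- against 0, 1 and 2 reads in RC/+ kidneys, a ratio of 5.46 with an interval of 1.68 to 28.1. No call is given for Areg either, for the same reason, and library 16 alone held 13 of its RC/- reads. A count of 0 allows up to 0.0973 to 0.147 CPM, depending on the library.

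The receptors differed little. Egfr ranged from 42.7 to 54.4 CPM in RC/+ and from 47.7 to 69.1 CPM in RC/- kidneys, so the groups overlapped. Its log2 difference of 0.30 (SE 0.11) had an adjusted p of 0.0423, which became 0.313 at a difference of 0.16 when libraries were scaled by TMM in place of total counts. The median of all genes tested was 0.14 with total counts and 0.01 with TMM in this comparison, so about that much of each difference depends on the scaling. Erbb2 ranged from 99.8 to 115.6 CPM in RC/+ and from 102 to 141 CPM in RC/- kidneys (log2 difference 0.19, interval -0.03 to 0.42, adjusted p = 0.197). Erbb3 ranged from 58.2 to 70.8 and from 58.3 to 85.3 CPM (0.13, interval -0.09 to 0.36, adjusted p = 0.399). The sign of the Erbb3 difference turned under TMM. Erbb4 ranged from 40.8 to 52.4 and from 36.4 to 43.9 CPM (-0.16, interval -0.50 to 0.17, adjusted p = 0.491). For each receptor the interval thus leaves out the change of 1 log2 unit or more that was fitted for Egf, Btc, Tgfa and Hbegf.

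**Figure D2:**
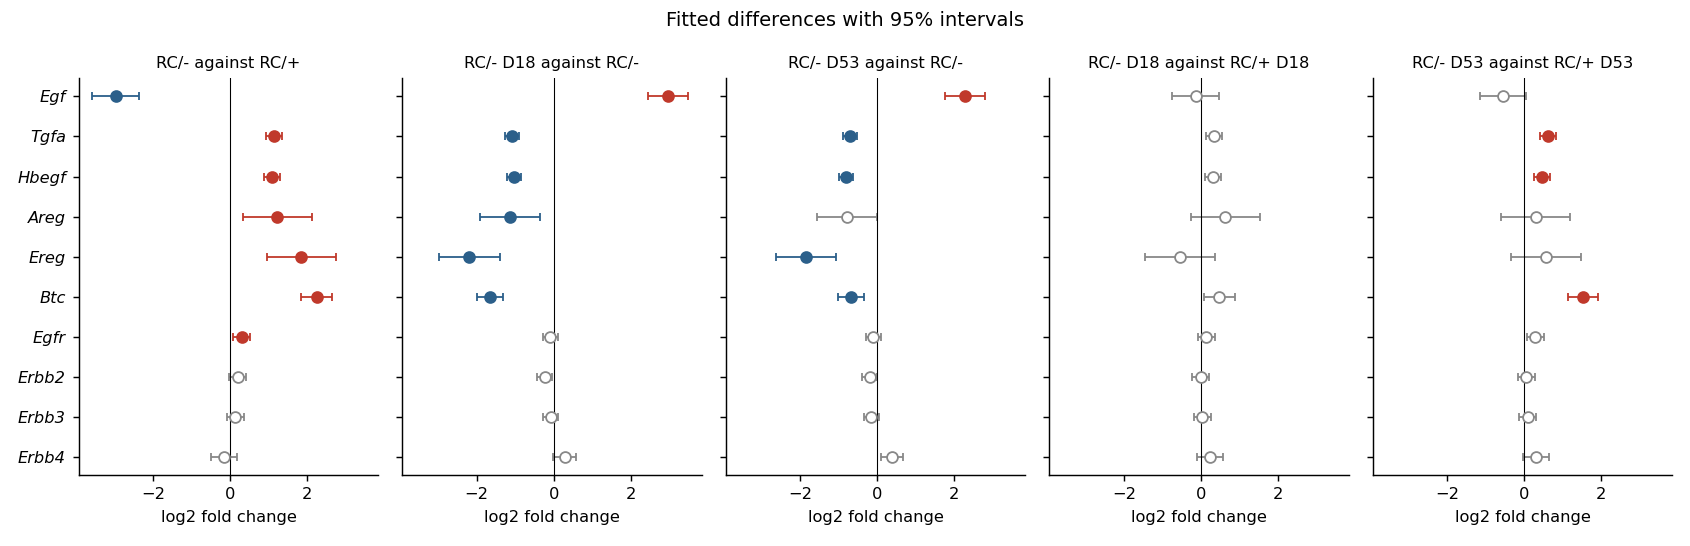
Fitted log2 differences (horizontal axis) for the 10 genes in 5 comparisons, with 95% intervals from the limma SE by a normal approximation. Filled red and blue points were higher and lower at a limma adjusted p below 0.05, and open grey points were not called. Egf at -2.98 and Btc at 2.24 in RC/- against RC/+ lie far from the receptors, which stay within 0.30 of 0. Areg and Ereg follow the same fill rule. They were tested only because of their RC/- reads, so their fills are not given as calls.

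The make-up of the ligand pool differed as well. By CPM per kb, Egf transcripts were 94.03% ± 0.385 of the 6 ligands in RC/+ (SD, n = 3) and 39.9% ± 11.9 in RC/- kidneys (SD, n = 5). Btc went from 2.04% ± 0.394 to 31.8% ± 8.16, Hbegf from 2.93% ± 0.0341 to 20.6% ± 3.93 and Tgfa from 0.970% ± 0.100 to 7.10% ± 1.66. Areg and Ereg made up 0.393% ± 0.327 and 0.185% ± 0.0746 of the RC/- pool. The pool as a whole was smaller, at 48.0 ± 7.04 against 154 ± 15.5 CPM per kb, although the 5 ligands other than Egf summed to 28.3 ± 3.39 in RC/- against 9.18 ± 0.385 CPM per kb in RC/+ kidneys. Among the receptors, Erbb2 held 53.7% ± 0.978 in RC/- and 52.3% ± 1.42 in RC/+ kidneys, and Egfr 11.7% ± 0.474 and 10.7% ± 1.69. Erbb3 held 27.1% ± 0.754 and 27.6% ± 2.07, and Erbb4 7.53% ± 0.537 and 9.45% ± 1.40. The mean share of each receptor thus differed by less than 2 percentage points between the genotypes. These shares describe transcripts, not protein, and depend on the annotated exon lengths.

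**Figure D3:**
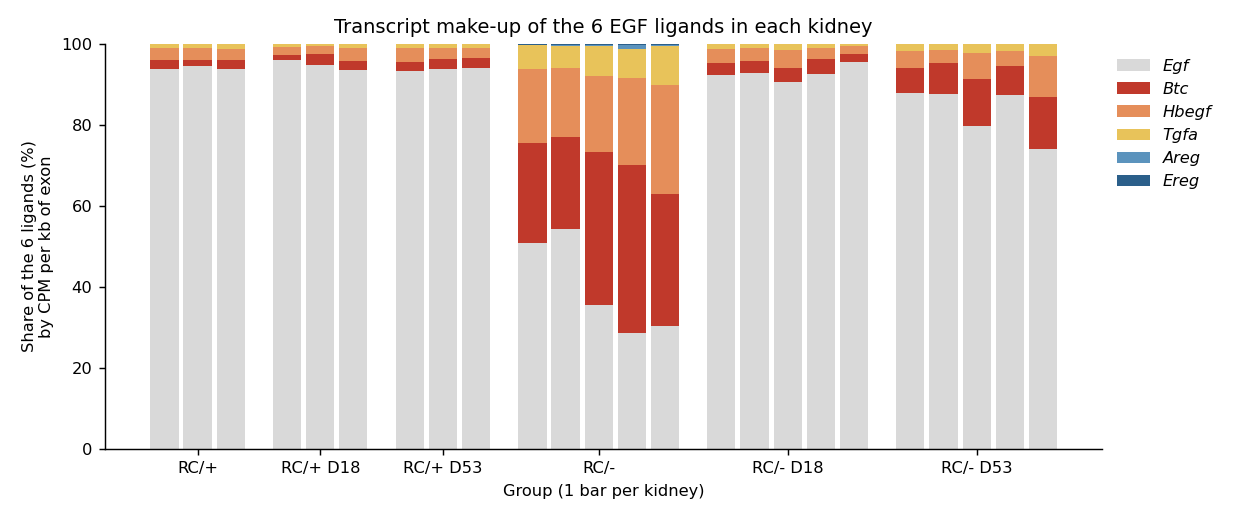
Share of each of the 6 ligands (vertical axis, percent of their summed CPM per kb of exon) with 1 bar per kidney, by group. Egf makes up 28.5% to 54.3% of the pool in the 5 RC/- kidneys, 74.1% to 88.0% in RC/- D53 and at least 90.5% in the kidneys of the other groups.

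The comparison of RC/- D18 with RC/- asks what deleting the miR-17 motif from the RC allele went with in cystic mice. It uses the same RC/- libraries as the comparison above, so opposite signs in the 2 are in part built in, and the levels themselves are given. Of the 8 well-detected members 4 were called, Egf higher and Tgfa, Hbegf and Btc lower. Of all genes, 41.2% were called, 14.3% higher and 26.9% lower, and 27.8% had groups that did not overlap, as these 4 members had.

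Egf stood at 1455, 1407, 1229, 1796 and 2495 CPM in RC/- D18 kidneys, a range that overlaps that of RC/+ (log2 difference from RC/- 2.97, SE 0.27, adjusted p = 6.39e-09, 7.84-fold). Btc stood at 18.9, 18.7, 18.95, 29.03 and 21.96 CPM, lower than in RC/- (log2 difference -1.65, SE 0.17, adjusted p = 6.16e-08). These Btc values all lay below the RC/- range and above the 3 RC/+ values. Tgfa stood at 9.77, 9.30, 10.9, 11.1 and 9.24 CPM (-1.09, SE 0.09, adjusted p = 2.86e-09). Hbegf stood at 24.2, 20.5, 26.4, 22.3 and 20.8 CPM (-1.04, SE 0.09, adjusted p = 4.35e-09). Both ligands were below every RC/- kidney and overlapped RC/+. Ereg had 0, 0, 1, 0 and 1 reads, and Areg 4, 0, 2, 1 and 0 reads, in the RC/- D18 kidneys. Ereg reads were 22.1-fold more frequent in RC/- than in RC/- D18 (counting interval 5.75 to 189), and Areg reads 4.06-fold (1.73 to 11.05). Both genes were tested only because of their RC/- reads, which built in this direction, so no call is given for them. Without libraries 20, 21 and 22, the 3 RC/- D18 kidneys with high muscle genes, Egf differed by 2.79, Tgfa by -1.17, Hbegf by -1.07 and Btc by -1.82, each at an adjusted p of at most 5.66e-06.

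Markers of other cell types moved with these ligands in RC/- D18 against RC/-. All 5 distal convoluted tubule markers were higher, at a median of 1.86 and a summed level of 2367 to 2989 CPM in RC/- D18 kidneys, and 4 of 6 thick ascending limb markers were higher and 1 lower, at a median of 0.72. Principal cell markers were lower in 6 of 7 cases (median -0.997), as were 7 of 7 macrophage markers (-1.24) and 6 of 6 markers of dedifferentiated or injured tubule (-2.22). Their part in the ligand differences was not tested.

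None of the receptors was called in RC/- D18 against RC/- by limma-trend on total counts with all libraries. The log2 differences were -0.08 for Egfr (interval -0.28 to 0.11), -0.23 for Erbb2 (-0.43 to -0.04, adjusted p = 0.0657) and -0.07 for Erbb3 (-0.27 to 0.12). Erbb4 differed by 0.29 (-0.01 to 0.58, limma adjusted p = 0.132), and under TMM by 0.40 at a limma adjusted p of 0.0233. The edgeR quasi-likelihood test and DESeq2 called Erbb4 too, at adjusted p of 0.0199 and 0.014. It was called higher in 5 of 20 alternatives. The signs for Egfr and Erbb3 turned under TMM. Erbb2 was called as lower without RC/- library 16 (-0.29, adjusted p = 0.023) and without RC/- D18 library 21 (-0.28, adjusted p = 0.0384).

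In the D53 line the same 4 ligands were called in RC/- D53 against RC/-, with Egf higher and the others lower. The share of all genes called was 30.2%, with 11.3% higher and 18.9% lower, and 18.8% of genes had groups that did not overlap, as these 4 members had. Egf stood at 1329.6, 1544, 809, 1208 and 508 CPM (log2 difference 2.28, SE 0.27, adjusted p = 7.69e-07, 4.85-fold). The lowest of these, library 27, was still above the highest RC/- kidney. Btc stood at 36.2, 53.9, 46.6, 39.5 and 35.04 CPM (-0.68, SE 0.17, adjusted p = 0.00429), with the highest D53 value just below the lowest RC/- value of 54.2 CPM. Tgfa stood at 14.6, 13.5, 13.5, 12.7 and 11.8 CPM (-0.70, SE 0.09, adjusted p = 3.83e-06) and Hbegf at 27.6, 25.4, 27.8, 22.8 and 29.6 CPM (-0.82, SE 0.09, adjusted p = 4e-07). The D53 levels of Btc and Tgfa thus lay between those of the RC/- and the RC/+ kidneys, with no overlap on either side. Ereg had 0, 3, 2, 0 and 1 reads and Areg 4, 4, 0, 4 and 1 reads. Their fitted differences of -1.85 and -0.78 have the direction that their inclusion through RC/- built in, and no call is given for them. With membership of libraries 20 to 27 as a term in the model, the Btc call was lost (adjusted p = 0.0505) at a difference of -0.96, larger in size than the -0.68 without the term, while Egf differed by 1.97 (adjusted p = 0.0112). Only RC/- D18 holds kidneys both inside and outside libraries 20 to 27, so the term was estimated within that group and carried over to D53. It therefore cannot separate membership from the D53 genotype. Among the receptors only Erbb4 came near the threshold (0.38, SE 0.15, limma adjusted p = 0.0567), and TMM scaling gave 0.46 at 0.0133. The edgeR quasi-likelihood test and DESeq2 called Erbb4 as well, at adjusted p of 0.0094 and 0.0046. It was called higher in 7 of 19 alternatives. All 5 distal convoluted tubule and 4 of 6 thick ascending limb markers were higher in RC/- D53 than in RC/- kidneys, at medians of 1.52 and 0.56. Markers of principal cells (3 of 7, median -0.57), macrophages (7 of 7, -0.90) and dedifferentiated or injured tubule (6 of 6, -2.27) were lower, and 7 of 7 skeletal muscle markers were higher (5.68). Their part in these ligand differences was not tested.

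Comparisons within a line share no library with each other, and ask how much of the cystic difference was present once the motif was deleted. In RC/- D18 against RC/+ D18 none of the 10 members was called by limma-trend, edgeR or DESeq2. Of all genes 0.266% were called, and 3 members, Tgfa, Hbegf and Btc, were among the 2011 of 22570 genes (8.91%) with an unadjusted p below 0.05. Egf stood at 2107, 2124 and 1264 CPM in the RC/+ D18 kidneys, overlapping RC/- D18 (log2 difference -0.13, interval -0.74 to 0.47). Tgfa stood at 8.18, 7.25 and 8.17 CPM and Hbegf at 19.2, 17.9 and 17.8 CPM, all below the RC/- D18 values. Non-overlap was found for 5.76% of all genes. Their differences were 0.35 (interval 0.14 to 0.56, adjusted p = 0.253) for Tgfa and 0.31 (0.11 to 0.52, adjusted p = 0.292) for Hbegf. Btc stood at 10.9, 24.002 and 13.2 CPM in RC/+ D18 kidneys, and 1 of these, library 8, lay within the RC/- D18 range (0.48, interval 0.09 to 0.88, adjusted p = 0.463). The receptor differences lay between -0.0011 and 0.25.

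In RC/- D53 against RC/+ D53, 3 ligands were higher and none was lower. This compares with 2.6% of all genes called, 2.45% higher and 0.146% lower. Btc stood at 12.98, 15.2 and 15.1 CPM in RC/+ D53 kidneys, below every RC/- D53 kidney (log2 difference 1.53, SE 0.20, adjusted p = 5.57e-05, 2.89-fold). Tgfa stood at 8.37, 9.39 and 8.10 CPM (0.61, SE 0.11, adjusted p = 0.00127, 1.53-fold) and Hbegf at 21.8, 19.2 and 17.1 CPM (0.46, SE 0.10, adjusted p = 0.0139, 1.37-fold). These 3 ligands had groups that did not overlap, against 11.6% of all genes. Egf stood at 1389, 1534 and 1497 CPM, and overlapped RC/- D53 (-0.55, interval -1.16 to 0.05, adjusted p = 0.475). The receptor differences were 0.28 for Egfr, 0.05 for Erbb2, 0.09 for Erbb3 and 0.31 for Erbb4, none of them called. All RC/- D53 and no RC/+ D53 libraries belong to libraries 20 to 27, and with that membership as a term none of the 3 calls held (adjusted p = 0.054 for Btc, 0.156 for Tgfa and 0.234 for Hbegf, at differences of 1.24, 0.49 and 0.41). That term was estimated within RC/- D18 alone, so membership and genotype cannot be told apart in this comparison. The Hbegf call also depended on RC/+ D53 libraries 11 and 12, with adjusted p = 0.0706 and 0.143 when either was left out. In these kidneys 7 of 7 skeletal muscle markers were higher, at a median of 5.85, together with 5 of 7 macrophage and 3 of 7 principal cell markers, and their part in the ligand differences was not tested.

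The size of the cystic difference was itself compared between lines by an interaction contrast. Against the unedited line it was smaller in the D18 line for Egf (contrast 2.84, SE 0.44, adjusted p = 9.07e-05), Btc (-1.76, SE 0.28, adjusted p = 0.000147), Tgfa (-0.80, SE 0.15, adjusted p = 0.000722) and Hbegf (-0.78, SE 0.15, adjusted p = 0.000673), where 17.1% of all genes were called. The fitted contrast for Ereg was -2.39, in the direction its inclusion through RC/- built in. In the D53 line it was smaller for Egf (2.43, SE 0.44, adjusted p = 0.00101), Hbegf (-0.64, SE 0.15, adjusted p = 0.00649) and Tgfa (-0.53, SE 0.15, adjusted p = 0.0241), where 11.3% of all genes were called. For Btc that contrast was -0.72 (interval -1.27 to -0.16, adjusted p = 0.108). No receptor was called in either contrast, and the receptor contrasts ranged from -0.20 to 0.47. With membership of libraries 20 to 27 as a term the D53 contrasts were 2.12 for Egf, -0.69 for Hbegf and -0.65 for Tgfa, and none was called (adjusted p = 0.0617, 0.0754 and 0.0974). The term was estimated within RC/- D18 alone, and with it the SE for Egf grew from 0.44 to 0.59. The D18 contrasts were then 2.66 for Egf, -1.93 for Btc, -0.87 for Tgfa and -0.81 for Hbegf, at adjusted p of at most 0.00312.

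Between the cystic groups of the edited lines, Btc was the 1 member called. Its RC/- D53 values of 35.04 to 53.9 CPM all lay above its RC/- D18 values of 18.7 to 29.0 CPM (log2 difference 0.97, SE 0.17, adjusted p = 0.00994), in a comparison with 0.266% of all genes called. Without RC/- D53 library 25 no member was called. Tgfa differed by 0.39 (interval 0.21 to 0.58, adjusted p = 0.0687) and Egf by -0.69 (-1.22 to -0.17, adjusted p = 0.281). In the noncystic kidneys the deletion went with no call: none of the 10 members in RC/+ D18 against RC/+, where 0.00443% of all genes were called, and none in RC/+ D53 against RC/+, where the share was 0% of 22570 genes by limma-trend, with 525 genes at an unadjusted p below 0.05. Tgfa and Hbegf differed by -0.30 and -0.25 in RC/+ D18 at unadjusted p values of 0.0221 and 0.042, a comparison in which 1013 of 22570 genes (4.49%) were below 0.05, and no member reached that level in RC/+ D53. The Egf interval in RC/+ D18, from -0.55 to 0.80, and that in RC/+ D53, from -0.83 to 0.53, are wide enough to hold a change of 0.5 log2 units.

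The rest of the pathway was followed through 6 lists of genes, whose counts in RC/- against RC/+ are to be read beside the 25.5% of all genes called higher and the 12.2% called lower. Among the other ErbB ligands, Nrg1 (neuregulin 1, a ligand of Erbb3 and Erbb4) was higher in RC/- kidneys, at 12.7 ± 1.90 (SD, n = 5) against 3.67 ± 0.428 CPM (SD, n = 3; log2 difference 1.76, SE 0.20). It was the 1 called of 4 tested. In RC/- D18 kidneys it stood at 4.62 ± 1.24 CPM, and in those of RC/- D53 at 6.83 ± 1.28 CPM. Of the 6 genes for ligand shedding and maturation, 5 were higher and none lower, led by Rhbdf2 (1.02) and Rhbdf1 (0.71), the iRhom partners of the sheddase Adam17. Adam17 itself differed by 0.26, beside a median of 0.14 over all genes. With TMM or DESeq2 size factors 4 of the 6 genes were higher and none lower. In RC/- D18 and RC/- D53 against RC/-, 4 and 3 of these 6 genes were lower and none was higher, where 26.9% and 18.9% of all genes were lower. The median over the 6 genes was 0.37 in RC/- against RC/+, beside 0.14 over all genes tested.

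For the genes that act inside the cell, several calls depended on the scaling. Of 15 adaptors and ERK cascade genes 8 were higher and none lower in RC/- kidneys, led by the small GTPase gene Nras (0.70), with a median of 0.20, beside 0.14 over all genes. With TMM factors 4 were higher and 2 lower. Of 9 genes of the PI3K, PLC and Akt branch 3 were higher and none lower, led by Akt1 (0.53) and Pik3r2 (0.27), with a median of 0.15 that is close to that of all genes, as is the count to the 25.5% of genes called higher. With TMM factors 1 was higher and 1 lower, and Pik3r2 was no longer called (0.13, adjusted p = 0.226).

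Of 15 feedback inhibitors 4 were higher and 2 lower, near the 25.5% and 12.2% of all genes, at a median of 0.04 that became -0.09 with TMM. The ERK phosphatase gene Dusp5 rose from 3.27 ± 1.29 to 7.49 ± 1.05 CPM (1.25) and the ubiquitin ligase gene Cbl from 32.2 ± 2.08 to 57.0 ± 2.27 CPM (0.82). Errfi1, whose product binds and inhibits Egfr, fell from 272 ± 44.5 to 191 ± 26.02 CPM (-0.51, SE 0.17, adjusted p = 0.0203), and Lrig1, which promotes receptor turnover, fell from 27.7 ± 1.33 to 22.1 ± 4.42 CPM (-0.35). Of 10 genes known to respond to ERK activity 6 were higher and 1 lower, at a median of 0.75, and 5 and 1 with TMM. The transcription factor genes Egr1 (28.3 ± 16.8 to 86.2 ± 8.31 CPM, 1.75) and Myc (11.9 ± 1.32 to 36.0 ± 7.31 CPM, 1.57) led them, and Ier3 was lower (-0.44). In RC/- D18 against RC/-, 6 of these 10 were lower and none higher, where 26.9% of all genes were lower. In RC/- D53 against RC/-, 5 were lower and none higher, where 18.9% of all genes were lower. Both comparisons use the same RC/- libraries as RC/- against RC/+, so opposite signs are in part built in. Within the D18 line no gene of the 6 lists was called. Within the D53 line 3 ERK-responsive genes, 1 shedding gene and Nrg1 were higher, where 2.45% of all genes were higher. With TMM or DESeq2 size factors only 1 ERK-responsive gene was higher there, and the counts of the other lists were unchanged. All RC/- D53 and no RC/+ D53 libraries were among those with high skeletal muscle genes. Genotype and that feature cannot be told apart in these calls. Many genes other than ErbB receptors act on ERK-responsive genes, and transcript levels do not measure receptor activity.

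**Figure D4:**
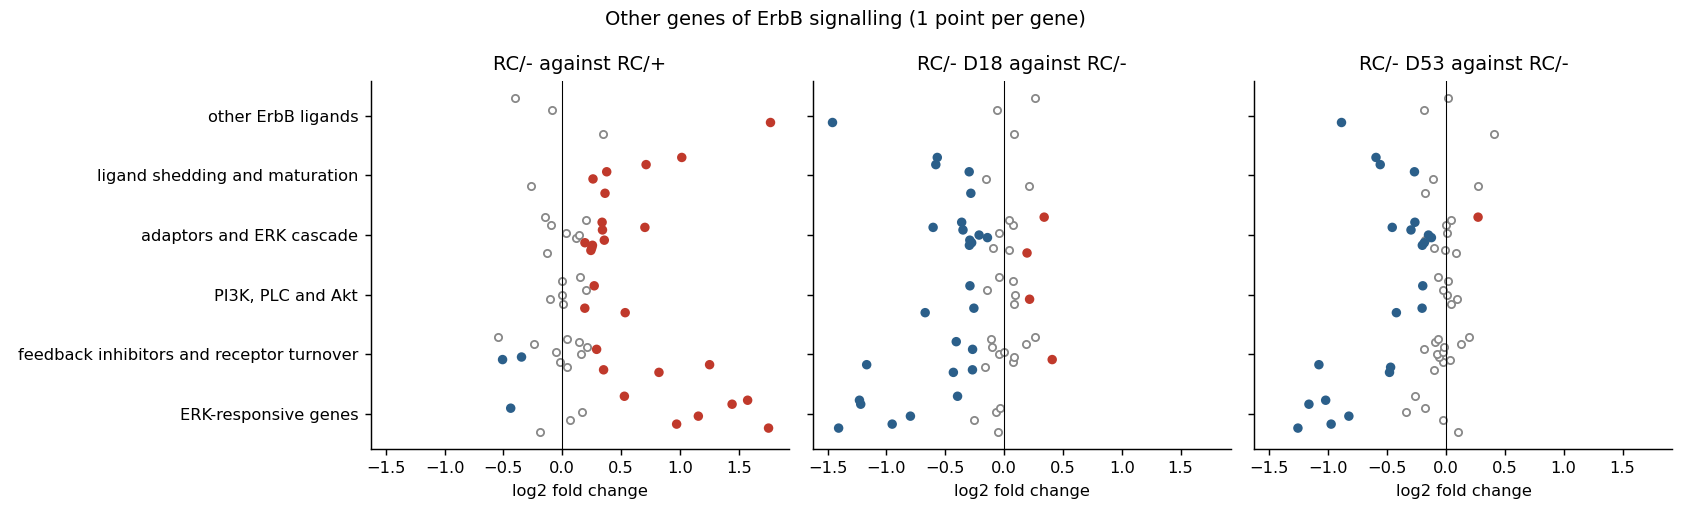
Log2 differences (horizontal axis) of the genes of 6 lists of ErbB signalling (rows, 1 point per gene) in 3 comparisons that share the RC/- libraries; filled red and blue points were higher and lower at an adjusted p below 0.05. In RC/- against RC/+ the points farthest to the right are Nrg1 (1.76) and Egr1 (1.75). The medians there are 0.75 for ERK-responsive genes, 0.37 for shedding genes and 0.20 for the adaptor list.

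The genes whose log2 CPM followed each strongly differing member most closely over the 24 libraries were found by the root mean square (RMS) difference of centred values, as a description with no test. For Egf they were C030005K06Rik, Slc4a1 and Malrd1, at RMS differences of 0.36, 0.40 and 0.42, beside an SD of 1.24 of Egf itself. Slc4a1 is 1 of 4 intercalated cell markers, of which 3 were lower and 1 higher in RC/- against RC/+ (median -0.81). For Btc they were Mcoln3 (0.26), Hsd11b2 (0.29) and Degs2 (0.32). Hsd11b2 encodes the enzyme that shields the mineralocorticoid receptor from glucocorticoids in the distal nephron and collecting duct. Frk (0.13) and Slc26a2 (0.14) were among the genes nearest to Tgfa, and Hbegf was followed by Kctd11 (0.11), Capg (0.12) and Pwwp2b (0.13). For the barely detected Areg and Ereg the nearest genes were Adgre1, Spag17 and Calcb, and Fgd3, Evi2 and Elf3, at differences of 0.49 or more.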

How the data were processed

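RNA was measured in 1 whole-kidney library for each of 24 mice. The authors trimmed reads with Trim Galore 0.6.3, aligned them to GRCm38 with STAR 2.5.3a and deposited raw read counts per Ensembl gene; the strand setting is not given in the sources used here. No column of per-sample values was unused (0), and the 343 genes without a symbol were kept.

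Counts were divided by library totals and scaled to 1000000 (CPM), and log2 CPM values with a prior count of 2 were tested with limma-trend (limma 3.58.1, edgeR 4.0.16, R 4.3.3) in 1 model of 6 group means over all 24 libraries. The test is that of the study, whose model is not stated. Genes whose mean log2 CPM reached -3 were tested (22570), and Benjamini-Hochberg adjustment was made over all of them, with a threshold of 0.05. Tests were two-sided. There were 10 comparisons. Without the RC/- libraries, Areg and Ereg would have had mean log2 CPM of -3.01 and -3.22.

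Alternatives were TMM and DESeq2 size factors, the edgeR quasi-likelihood test, DESeq2 1.42.0, no filter, a prior count of 0.5, sex or membership of libraries 20 to 27 as a term, only the groups compared, a log2 fold change of at least 1, and each library left out. Sex was read from Xist and Ddx3y. The members and lists were chosen with earlier results of these data known. All members are named; of each list the 2 higher and 2 lower called genes with the largest change in RC/- against RC/+ are named, plus a marker or list gene beside a member. Adam17 was named after its value was seen. Some genes that this rule names are not reported here. Exon lengths and coordinates came from GENCODE M21. The test was tested on simulated data. The labels number every library separately, and p-values measure the spread between these libraries. Chi-square per degree of freedom of library pairs within groups was 6.44 to 35.1, so none were copies.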

Additional observations from a re-analysis of the deposited data

Results flagged for a closer look

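Among 30 combinations of member and 5-kidney group, 1 kidney lay outside the spread of its group: Areg in RC/- library 16 was 0.546 CPM, against 0.0855 to 0.211 CPM in the other 4. Chance alone gives about 1 in 20 such cases, and the value rests on 13 reads.

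The RC/- against RC/+ difference itself was not the same size in the D18 as in the unedited line for 4 well-detected members, by contrasts of 2.84 for Egf, -0.80 for Tgfa, -0.78 for Hbegf and -1.76 for Btc on the log2 scale (limma adjusted p at most 0.000722). The contrast for Ereg was -2.39, but Ereg was tested only because of its RC/- reads, which built in that direction. Between the D53 and the unedited line it differed for 3 members, by 2.43 for Egf, -0.53 for Tgfa and -0.64 for Hbegf (limma adjusted p at most 0.0241), and none of these 3 was called with membership of libraries 20 to 27 as a term. That term was estimated within RC/- D18 alone. Both sets of contrasts use the same RC/- and RC/+ libraries.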

How the results depend on the processing

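Egf, Tgfa, Hbegf and Btc kept their direction and their call in RC/- against RC/+ under all 17 alternatives and in RC/- D18 against RC/- under all 20, 1 of which, leaving out libraries 20, 21 and 22, was chosen after seeing the data. Of the 8 well-detected members, 4 were called in RC/- against RC/+ with edgeR and with DESeq2 against 5 with limma-trend, the Egfr call being lost. With libraries 20 to 27 as a term, estimated within RC/- D18 alone, 3 against 4 were called in RC/- D53 against RC/-, the Btc call being lost. With that term it was 0 against 3 in RC/- D53 against RC/+ D53, and 0 against 3 in the D53 interaction. Asking for a log2 fold change of at least 1 left Egf alone in RC/- D53 against RC/- and Btc alone in RC/- D53 against RC/+ D53. It left none in RC/- D53 against RC/- D18, Egf and Btc in the D18 interaction, and Egf alone in the D53 interaction. The shares of all genes called by limma-trend in these comparisons are given above. DESeq2 called 2 members in RC/- D53 against RC/- D18, and leaving out single libraries gave 0 to 1. Erbb4 was not called by the main test in either edited line against RC/-. It was called higher in 5 of 20 alternatives in RC/- D18 and in 7 of 19 in RC/- D53.

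Signs turned only for differences that were not called. Erbb3 in RC/- against RC/+ was -0.0073 with TMM and -0.0034 with DESeq2 size factors. In RC/- D18 against RC/-, TMM, DESeq2 size factors, edgeR and DESeq2 gave 0.0303, 0.0270, 0.0286 and 0.0259 for Egfr and 0.0434, 0.0402, 0.0374 and 0.0345 for Erbb3, which was 0.0023 with libraries 20 to 27 as a term and 0.0023 without libraries 20, 21 and 22. Erbb3 in RC/- D18 against RC/+ D18 was -0.0012, -0.0026 and -0.0013 with TMM, edgeR and DESeq2. Leaving out single libraries in that comparison gave -0.912 to 0.221 for Ereg, -0.0480 to 0.0261 for Erbb2, -0.0302 to 0.0923 for Erbb3 and -0.0694 to 0.428 for Erbb4. In RC/- D53 against RC/+ D53 it gave -0.0591 to 0.538 for Areg, -0.0586 to 0.154 for Erbb2 and -0.0466 to 0.228 for Erbb3. The cause of these changes was not tested. Sex as a term changed no call. No paired analysis was possible because no replicate number is shared between groups. Depth limits Areg and Ereg, which had 13 reads or fewer in every library.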
